A study of Mus musculus with 6 samples.

Results

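The Apoe-Apoc1-Apoc4-Apoc2 gene cluster was examined in liver RNA sequencing of mice with Surf4 deleted in hepatocytes. Its members were chosen by gene symbol and comprised 4 of the 35703 genes and 20 of the 116748 transcripts in the expression table. All 4 genes passed the minimum of 0.1 TPM that left 14219 genes for testing. TPM is an abundance of transcripts corrected for their length and scaled to a total of 1000000 per mouse. The cluster was chosen with the genotype comparison already known, and the genotype differences of its members are therefore given as a description, with standard errors and without a test.

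Both groups of 3 livers came from Surf4 fl/fl littermates on the C57BL/6J background, which either carried the transgene (Alb-Cre+) or lacked it (Alb-Cre-, the controls). Exon 2 of Surf4, which encodes a cargo receptor of the endoplasmic reticulum, was flanked by loxP sites in both groups. Cre was driven by the albumin promoter, which is active in hepatocytes. The study considers other liver cells the likely source of the Surf4 mRNA that kept exon 2. The female of each group was replicate 2, with males as replicates 1 and 3, and the age of the sequenced mice was not given in the sources used here. The study's methods describe an overnight fast before blood and tissue were collected. Summed over its transcripts, Surf4 had 92.5, 94.5 and 92.5 TPM in the controls and 59.0, 71.8 and 54.3 TPM in Alb-Cre+ mice. The 3 Alb-Cre+ livers all lay below the controls, although this sum does not separate the deleted exon from the rest of the mRNA.

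Apolipoproteins coat lipoprotein particles and decide which enzymes and receptors act on them. The hepatocyte secretes most of the apoE and apoC proteins of plasma on very low density lipoproteins. ApoE is a ligand for hepatic receptors such as LRP1, apoC-II is the cofactor that lipoprotein lipase needs, apoC-I hinders the uptake of remnant particles, and apoC-IV is a minor component of very low density lipoproteins. The genes arose by duplication and lie side by side, and in the liver their transcription is known to depend on shared enhancers within the cluster.

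In the GRCm38 annotation the 4 genes span 27610 bases of chromosome 7 and are all read from the minus strand, in the order Apoe, Apoc1, Apoc4, Apoc2. Apoe lies at chr7:19696109-19699188 and is followed by a gap of 3448 bases. Apoc1 lies at chr7:19689481-19692660, followed by the widest gap of 8001 bases. Apoc4 lies at chr7:19678083-19681479 and ends only 141 bases before Apoc2, at chr7:19671579-19677941. Tomm40, a mitochondrial import channel gene, starts the next unit 2124 bases beyond Apoe, and Clptm1 lies 6545 bases beyond Apoc2.

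A further annotated gene, Gm44805, for which RefSeq lists the synonym Apoc4-apoc2, crosses the gap. Its transcripts begin in exon 1 of Apoc4, skip the remaining Apoc4 exons and join the exons of Apoc2, and they carry the same 291 coding bases as the Apoc2 transcripts. The splice junctions are printed because they are the letters by which a read can tell these transcripts apart. They run 5′ to 3′ along the mRNA, 15 bases on each side of the junction, and capitals mark the end of Apoc4 exon 1.
Apoc4-201, exon 1 to exon 2: TGGTCAGCTTTGTAGcatccatgtctacag
Gm44805-201, Apoc4 exon 1 to the upstream Apoc2 exon: TGGTCAGCTTTGTAGgcctgccaccccacc
Gm44805-202, Apoc4 exon 1 to the first coding exon of Apoc2: TGGTCAGCTTTGTAGgtcccagacagcatg
Apoc2-201, upstream exon to first coding exon: tgccactacattcaggtcccagacagcatg
The last 2 of these share every base after the junction.

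The amount of shared sequence was unequal within the cluster. Of the stretches of 31 bases in Apoc2-201, the main Apoc2 transcript, 99.2% also occurred in Gm44805, against 17.5% of those in Apoc4-201. In turn, 81% of the Gm44805 stretches occurred in Apoc2 and 11.9% in Apoc4. Apoc4 and Apoc2 shared none with each other, and Apoe and Apoc1 shared none with any annotated gene. The division of TPM between Apoc2 and Gm44805 thus rests on few letters, and both genes are uncertain to that extent, whereas the division between Apoc4 and Apoc2 does not rest on shared exons.

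**Figure D1:**
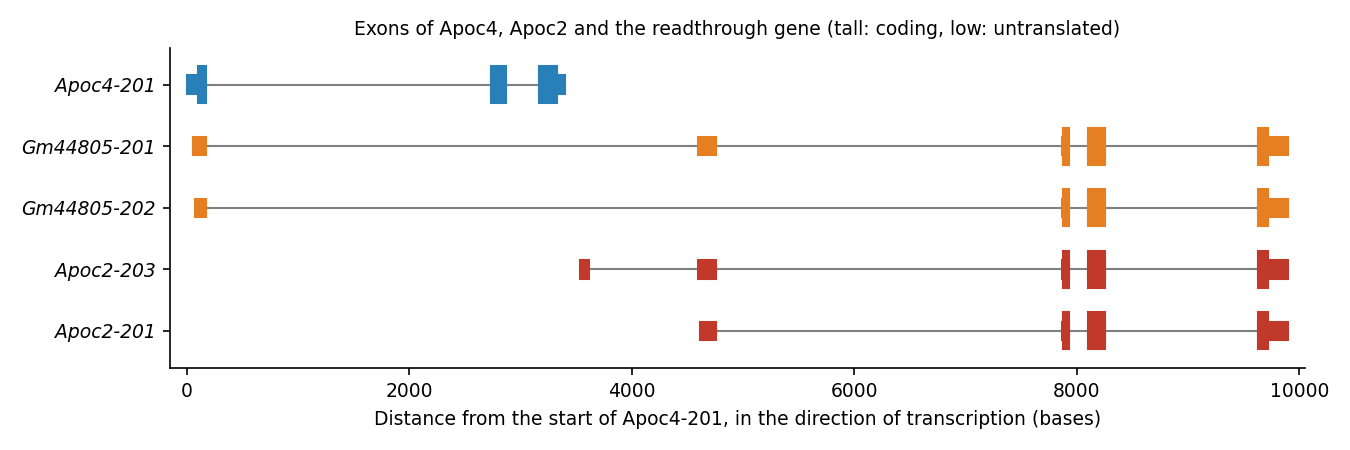
Exons of Apoc4-201 (blue), the 2 Gm44805 transcripts (orange) and 2 Apoc2 transcripts (red), drawn to scale by distance in bases from the start of Apoc4-201 in the direction of transcription, with tall boxes for coding and low boxes for untranslated sequence. The orange transcripts start within the first blue exon and end with the same coding exons as the red ones.

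The 141 bases between Apoc4 and Apoc2, which form the whole space between the genes, and the 231 bases upstream of Apoc4 are printed from RefSeq promoter windows of GRCm38.p6, on the minus strand as transcribed.
Apoc4 to Apoc2 gap, chr7:19677942-19678082: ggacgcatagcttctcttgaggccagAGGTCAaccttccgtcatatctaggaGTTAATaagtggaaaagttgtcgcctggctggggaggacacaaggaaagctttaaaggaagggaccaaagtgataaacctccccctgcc
Apoc4 upstream, chr7:19681480-19681710: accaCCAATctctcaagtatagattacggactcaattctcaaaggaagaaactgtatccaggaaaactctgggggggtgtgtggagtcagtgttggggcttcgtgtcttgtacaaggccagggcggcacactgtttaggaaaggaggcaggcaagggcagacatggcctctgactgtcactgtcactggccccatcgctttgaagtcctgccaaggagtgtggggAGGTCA
Capitals mark matches to 4 motifs searched on both strands in the RefSeq windows of 300 bases around each start, with no overlap between the matches shown. AGGTCA, the hexamer recognized by many nuclear receptors, occurred in 16.3% of the 32851 windows of all genes, CCAAT in 37.4%, TATAAA in 13.6%, and GTTAAT in 7.1%. Positions are those of a motif's first base relative to the RefSeq start of its window. For Apoc4 that start is 19681460, inside the gene as annotated here, so that AGGTCA at position -25 ends the printed stretch and CCAAT at -246 lies near its beginning. For Apoc2 it is 19677941, with AGGTCA at -115 and GTTAAT at -89. A further AGGTCA lay at position 42 of Apoc2, past the printed gap. The Apoc2 start used by this window belongs to Apoc2-203, a minor transcript, and Apoe had 3 windows, of which 1 held TATAAA and another GTTAAT. Windows were found for 3 of the members and none for Apoc1. The matches are descriptions of sequence and were not related to the expression values.

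Together the 4 genes made up a large part of liver mRNA by TPM. Their sum was 5.00%, 4.23% and 4.16% of all TPM in the controls and 4.09%, 3.39% and 3.79% in Alb-Cre+ mice. On the deposited scale the 2 groups did not overlap, with means of 4.46 ± 0.467% and 3.76 ± 0.353% (SD, n = 3 each). Most of the sum was Apoe, which on its own overlapped between the groups. Since TPM add up to a fixed total, these are shares of mRNA and not amounts per liver, and in bulk tissue fewer cells of a type cannot be told apart from less RNA per cell.

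The order Apoe, Apoc1, Apoc4, Apoc2 held in every mouse, and the TPM ranges of neighboring genes in it did not overlap over the 6 livers. Apoe ranked 2nd to 4th of all genes by TPM, Apoc1 ranked 12th to 22nd, Apoc4 52nd to 72nd and Apoc2 132nd to 492nd. The levels thus fell along the chromosome in the direction of transcription.

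Apoe, the receptor ligand, had 36759, 30271 and 28666 TPM in control replicates 1, 2 and 3, and 30198, 24841 and 27766 TPM in Alb-Cre+ replicates 1, 2 and 3. The groups overlapped, because the highest Alb-Cre+ liver lay above the lowest control. The group means were 31899 ± 4285 and 27602 ± 2683 TPM (SD, n = 3 each), and the difference of means on log2(TPM + 0.1), Alb-Cre+ minus Alb-Cre-, was -0.20 with an SE of 0.288. That SE, which came from a fit with a variance trend over genes, was larger than the difference. Without the trend the SE was 0.177, smaller than the difference. The difference was -0.10 without control replicate 1 and -0.13 without Alb-Cre+ replicate 2.

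Apoc1, the inhibitor of remnant uptake, had 9565, 8363 and 9675 TPM in the controls and 7835, 6639 and 7776 TPM in Alb-Cre+ mice. All 3 Alb-Cre+ livers lay below the controls, by a narrow margin. Its log2 difference was -0.31 (SE 0.205), an Alb-Cre+ mean of 80.6% of the control mean.

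Apoc4 had 2701, 2862 and 2584 TPM in the controls and 2263, 1915 and 2152 TPM in Alb-Cre+ mice. The groups did not overlap, and the female was the highest control and the lowest Alb-Cre+ liver. The log2 difference was -0.37 (SE 0.155).

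Apoc2, the lipase cofactor, had 992, 758 and 699 TPM in the controls and 596, 473 and 221 TPM in Alb-Cre+ mice. The groups did not overlap, and Alb-Cre+ replicate 3 was far below the other two Alb-Cre+ livers. The means were 816 ± 155 and 430 ± 191 TPM (SD, n = 3 each), and the log2 difference was -1.02 (SE 0.362). Without Alb-Cre+ replicate 3 it was -0.60, so 1 liver contributed a large part of this value.

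**Figure D2:**
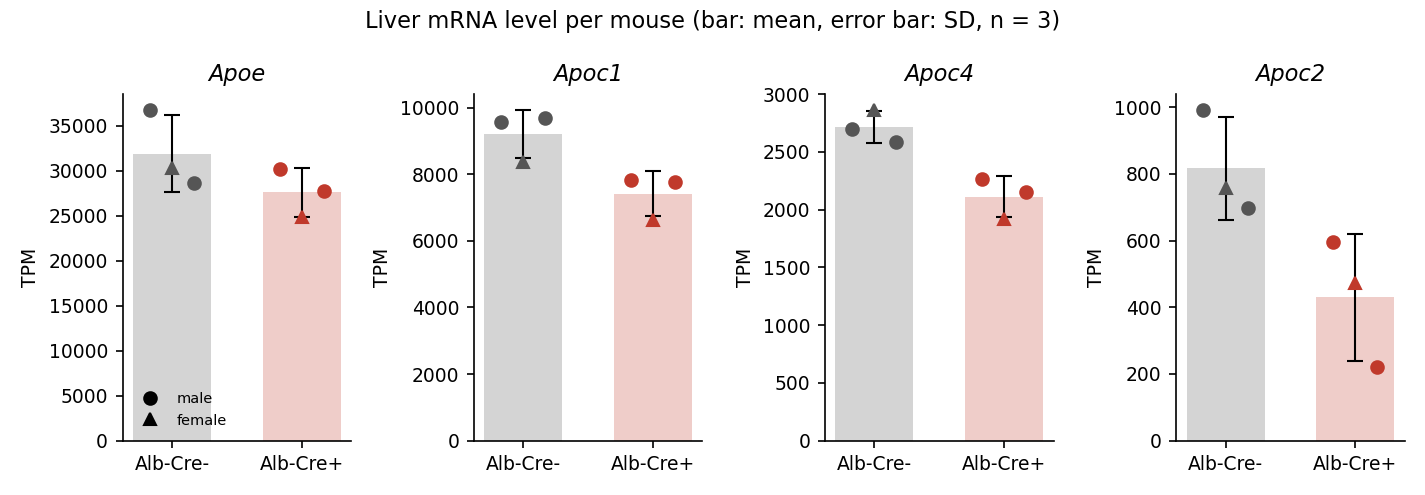
TPM of each cluster gene in the 6 livers, on axes that start at 0, with bars for group means, error bars for SD, circles for males and triangles for females. Apoe overlaps between Alb-Cre- (gray) and Alb-Cre+ (red), while Apoc1, Apoc4 and Apoc2 do not, and 1 Alb-Cre+ male has 221 TPM of Apoc2.

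All 4 log2 differences were below 0, with a median of -0.34 against -0.00 over all genes tested. In 3 of the 4 members the groups did not overlap and Alb-Cre+ was lower, a pattern found in 2.71% of all genes tested. The contrast was the one known when the members were chosen, so nothing is read from these counts. No gene in the table passed an adjusted p of 0.01 by genotype in limma (0% of genes), while 249 genes, or 1.75%, had an unadjusted p under 0.05. The study itself, using DESeq2 and a false discovery rate of 0.01, did report a limited set of changed genes, with Derl3 the most significantly raised. The lack of calls in this fit to TPM thus does not mean that the genotypes were alike, and its reason was not tested.

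Scaling mattered for the margins between the groups. When TPM were rescaled by median of ratios, with factors from 0.847 to 1.21, the differences of the 4 genes were hardly moved, but Alb-Cre+ replicate 3 rose to 9179 for Apoc1, above the lowest control at 7752. On that scale 2 of the members, Apoc4 and Apoc2, remained without overlap, a pattern found in 2.89% of all genes. Apoe in Alb-Cre+ replicate 3 was 32779, above control replicates 2 and 3 at 28059 and 30784. The summed cluster overlapped too on this scale, because Alb-Cre+ replicate 3 lay above control replicate 2. Its separation therefore held on the deposited scale only. With the rescaling the SEs of the differences were 0.368 for Apoe, 0.296 for Apoc1, 0.229 for Apoc4 and 0.318 for Apoc2.

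Same-numbered livers gave the genotype difference within a sex. For Apoe it was -0.28, -0.29 and -0.05 on the log2 scale for replicates 1, 2 and 3, for Apoc1 -0.29, -0.33 and -0.32, and for Apoc4 -0.26, -0.58 and -0.26. Apoc2 ranged most widely, with -0.73, -0.68 and -1.66. All 12 of these values were below 0, which the lack of overlap had already fixed for Apoc1, Apoc4 and Apoc2. The contrast is again the known one, and nothing is read from this count.

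Next, the TPM of Apoc4 and Apoc2 were divided between the genes. Apoc2 was 26.9%, 20.9% and 21.3% of the summed Apoc4 and Apoc2 TPM in the controls and 20.8%, 19.8% and 9.31% in Alb-Cre+ mice. Aside from replicate 3 the Alb-Cre+ shares lay just under the 2 lower controls. The means were 23.0 ± 3.32% and 16.7 ± 6.38% (SD, n = 3 each), a difference of -6.37 percentage points that was -2.69 without Alb-Cre+ replicate 3. Counting the readthrough as Apoc2 made the groups overlap, with a highest Alb-Cre+ share of 21.8% and a lowest control share of 21.6%. Counted as Apoc4, it left them just apart, at 20.6% and 20.8%.

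The readthrough gene itself was scarce. Gm44805 had 43.9, 28.2 and 28.7 TPM in the controls and 36.2, 18.5 and 22.8 TPM in Alb-Cre+ mice, with overlapping groups and a log2 difference of -0.40 (SE 0.286). This was -0.20 without control replicate 1, -0.19 without Alb-Cre+ replicate 2 and -0.68 without Alb-Cre+ replicate 1. It made up 3.59% to 4.24% of the summed Apoc2 and Gm44805 TPM in the controls and 3.76% to 9.36% in Alb-Cre+ mice. The highest share was again in Alb-Cre+ replicate 3, where Apoc2 was lowest and Gm44805 was between the other two livers. As a share of Apoc4, Apoc2 and Gm44805 together it was 0.774% to 1.17% in the controls and 0.768% to 1.25% in Alb-Cre+ mice.

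Relative to Apoe, Apoc2 stood at 2.70%, 2.51% and 2.44% of the Apoe TPM in the controls and 1.97%, 1.91% and 0.796% in Alb-Cre+ mice, without overlap. The ratio of Apoc2 to Apoc1 overlapped, at 7.22% to 10.4% in the controls and 2.84% to 7.60% in Alb-Cre+ mice. Those of Apoc1 to Apoe and of Apoc4 to Apoc1 overlapped too, with 26.0% to 33.7% against 25.9% to 28.0% and with 26.7% to 34.2% against 27.7% to 28.9%. Apoc4 was 7.35% to 9.45% of Apoe in the controls and 7.49% to 7.75% in Alb-Cre+ mice.

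**Figure D3:**
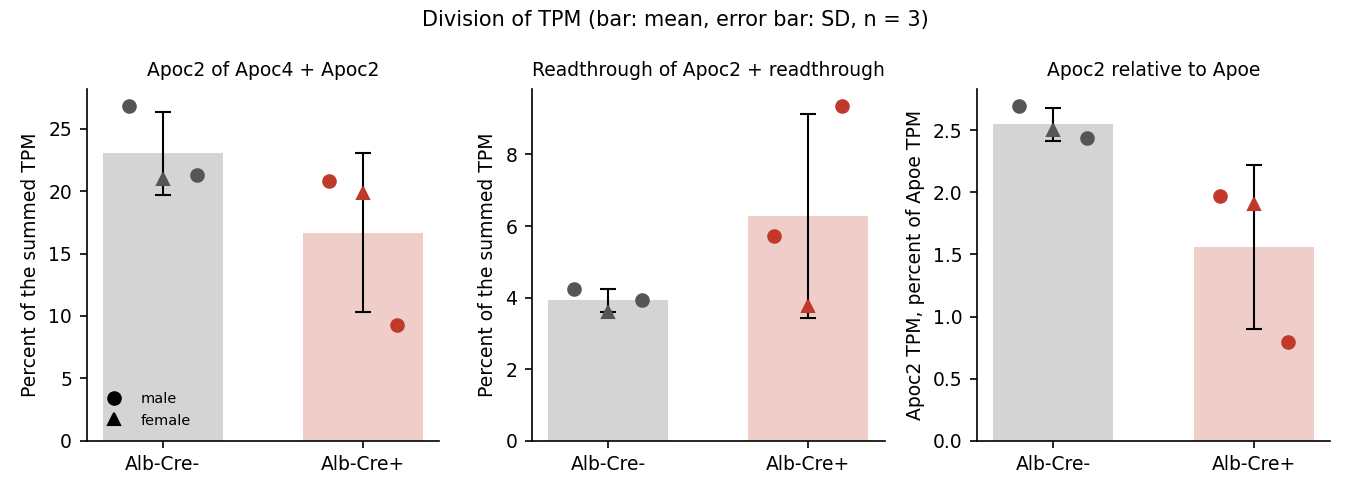
Apoc2 as a percent of the summed Apoc4 and Apoc2 TPM, Gm44805 as a percent of the summed Apoc2 and Gm44805 TPM, and Apoc2 TPM as a percent of Apoe TPM, by mouse, with bars for means, error bars for SD, circles for males and triangles for females. Alb-Cre+ replicate 3, a male, is the extreme point in each panel, at 9.31%, 9.36% and 0.796%.

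Of the 20 transcripts of the cluster, 19 had a mean of at least 0.1 TPM, and in 6 of them the groups did not overlap and Alb-Cre+ was lower, against 2.79% of all 41627 transcripts at that level. Here too the contrast is the known one and nothing is read from the count. Apoc1-201 held 98.3% to 98.6% of Apoc1, and Apoc4-201 held at least 99.9% of Apoc4, so both genes were in effect 1 transcript. Apoc2-201 held 92.4% to 95.9% of Apoc2. Apoc2-203, which starts directly at the gap after Apoc4, had 34.7 to 42.4 TPM in the controls and 15.5 to 23.8 TPM in Alb-Cre+ mice, without overlap. Apoc2-201, from a start further downstream, had 663 to 948 TPM and 204 to 571 TPM, also without overlap. Apoc2-202, the third transcript, was scarce and overlapped, with 1.13 to 1.53 TPM and 0.870 to 1.36 TPM.

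Apoe was the one member split between abundant transcripts. Apoe-209, which encodes the whole protein, held 50.1% to 53.5% of Apoe TPM, and Apoe-202, annotated as a processed transcript without a coding region, held 41.9% to 45.8%. Apoe-206, with the most upstream start, held 2.32% to 4.23%. Apoe-202 lacks 386 bases inside the last exon, chr7:19696338-19696723, of which 341 are coding, or 36.5% of the coding sequence. The bases at its edges are printed with 15 on each side, with capitals for the last bases before the missing stretch.
Apoe-202, across the missing stretch: CTCTGGTGGAGCAAGgtggccctgtctcaa
Apoe-209, start of the stretch: CTCTGGTGGAGCAAGgtcgccagcgcactg
Apoe-209, end of the stretch: tccatatccagccaggtggccctgtctcaa
The stretch begins with GT and ends with AG, the letters of a spliced intron, and the same 4 bases, AGGT, straddle both of its edges.

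The Apoe-202 share was 45.3%, 45.8% and 45.1% in the controls and 41.9%, 43.7% and 42.3% in Alb-Cre+ mice. The groups did not overlap, and the means were 45.4 ± 0.378% and 42.6 ± 0.969% (SD, n = 3 each). The Apoe-206 share was also without overlap but higher in Alb-Cre+ mice, at 2.32% to 2.81% in the controls and 2.93% to 4.23%. That of the scarce Apoe-204 was lower without overlap, at 0.385% to 0.440% and 0.330% to 0.372%. How often transcript shares lack overlap over all genes was not computed, so nothing is read from these separations. In TPM, Apoe-202 also did not overlap, with 12917 to 16638 in the controls and 10857 to 12643 in Alb-Cre+ mice, whereas Apoe-209 overlapped, with 14705 to 18664 and 12742 to 15829. Because Apoe-202 is shorter, its length-weighted part of Apoe was smaller, at 31.8% to 35.5% over the 6 livers. These shares are those of the authors' transcript estimates, and the reads that cross the junction were not examined here.

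**Figure D4:**
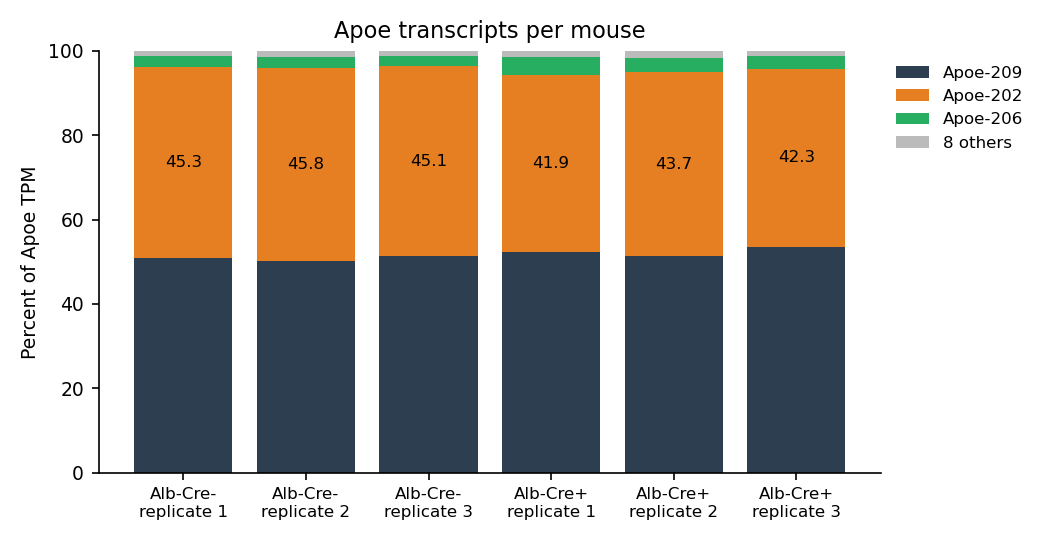
Percent of Apoe TPM in each liver that was assigned to Apoe-209 (dark), Apoe-202 (orange, value printed), Apoe-206 (green) and the 8 other transcripts (gray). The Apoe-202 share is 45.1% to 45.8% in Alb-Cre- and 41.9% to 43.7% in Alb-Cre+ livers.

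Sex was a comparison that the choice of members had not used. With genotype in the model, none of the 4 genes passed an adjusted p of 0.01 in limma, while 72 genes, or 0.506% of those tested, did. Female minus male, the log2 difference was -0.16 for Apoe (adjusted p = 0.665), -0.22 for Apoc1 (adjusted p = 0.39), -0.04 for Apoc4 (adjusted p = 0.857) and 0.12 for Apoc2 (adjusted p = 0.857). The 95% interval for Apoc2 ran from -0.81 to 1.06, so with 2 females and 4 males it reached large differences in either direction. The median over all genes was 0.26, and with median of ratios the 4 differences were -0.45, -0.50, -0.33 and -0.16, with adjusted p of 0.334, 0.16, 0.281 and 0.795 in limma. The sign of the Apoc2 difference by sex thus turned with the scaling.

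The genes next to the cluster were then read from the same genotype fit. Of 15 listed neighbors on chromosome 7, 13 were tested, 8 with differences above 0 and 5 below, with a median of 0.01 and a range of -0.32 to 0.16. None had an unadjusted p under 0.05 and none was without overlap between the groups. Tomm40, immediately beyond Apoe, differed by 0.00 (SE 0.145), with 38.5 to 46.8 TPM in the controls and 37.6 to 47.9 TPM in Alb-Cre+ mice. Clptm1, beyond Apoc2, differed by -0.25 (SE 0.157), and by -0.11 without Alb-Cre+ replicate 3. Relb, an NF-kappaB subunit, differed by -0.32 (SE 0.666), at 1.01 to 2.59 TPM in the controls and 0.610 to 3.23 TPM in Alb-Cre+ mice.

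The other apolipoproteins held the lowest values of the 5 gene lists examined. Of 12 listed, 11 were tested, 10 below 0 and 1 above, with a median of -0.31. None passed an adjusted p of 0.01 in limma, and 3 had an unadjusted p under 0.05, against 1.75% of all genes. The groups did not overlap, with Alb-Cre+ lower, in 5 of them, against 2.71% of all genes. This list too was chosen with earlier results of these data known, so nothing is read from its counts. Apoa1, the main protein of high density lipoproteins, had 17603, 20844 and 15764 TPM in the controls and 10222, 9779 and 8802 TPM in Alb-Cre+ mice, a difference of -0.91 (SE 0.237). Apoa4 had 1161, 3344 and 1147 TPM in the controls and 224, 369 and 62.6 TPM in Alb-Cre+ mice, a difference of -3.25 (SE 0.698), and Apom, the carrier of sphingosine 1-phosphate, differed by -0.40 (SE 0.124). The groups did not overlap for these 3 genes, for Apof (796 to 873 TPM in the controls, 516 to 779 TPM in Alb-Cre+ mice) or for Apoh (3124 to 3373 TPM and 2504 to 2826 TPM). Apoc3, the inhibitor of lipoprotein lipase, differed by 0.01 (SE 0.202), and Apob, the structural protein of very low density lipoproteins, by -0.00 (SE 0.225). Apof, Apoh, Apoc3 and Apob were named after their values were seen.

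**Figure D5:**
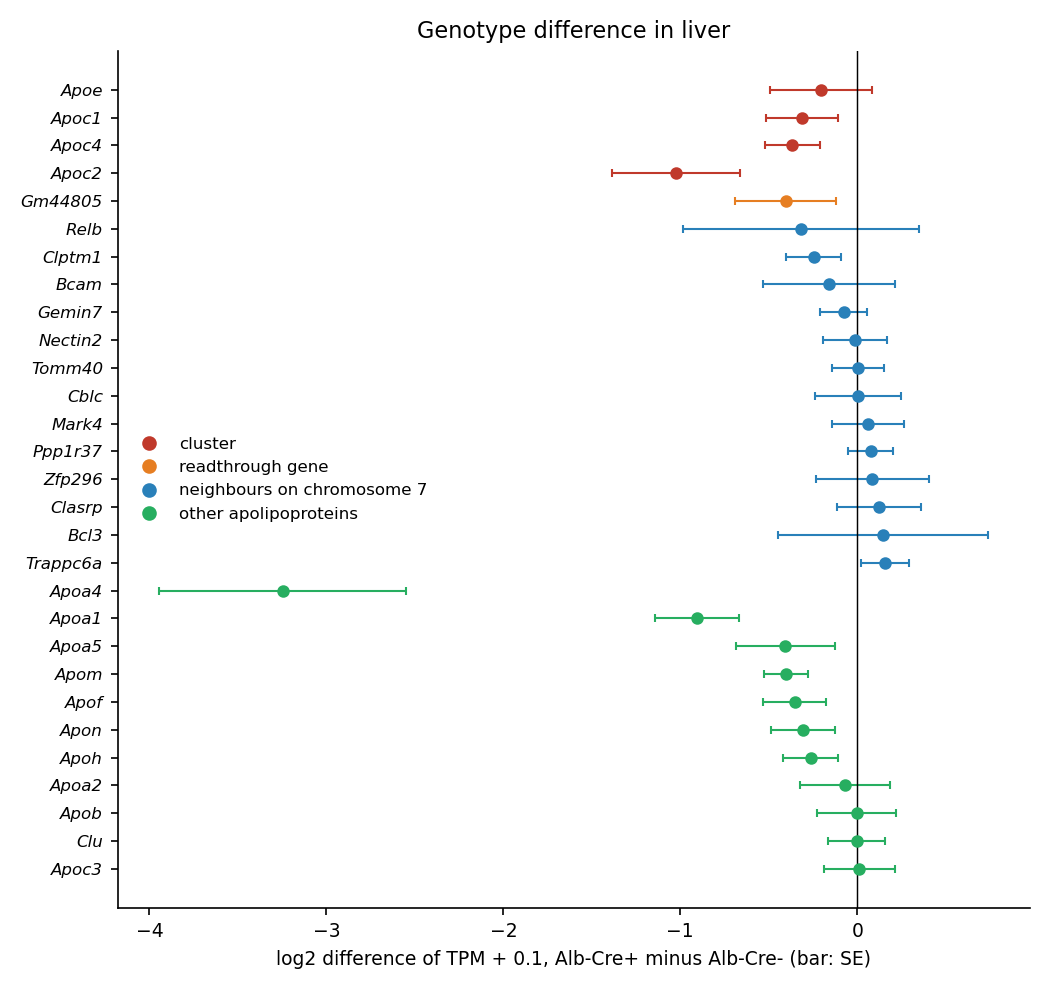
Log2 difference of TPM + 0.1, Alb-Cre+ minus Alb-Cre-, with SE bars, for the 4 cluster genes (red), Gm44805 (orange), 13 neighbors on chromosome 7 (blue) and 11 other apolipoproteins (green). Cluster genes lie at -0.20 to -1.02, neighbors at -0.32 to 0.16, and Apoa4 at -3.25.

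Receptors that take up apoE particles were examined as partners of the ligand. Of 12 listed, 11 were tested, 6 above and 5 below 0, with a median of 0.02. Scarb1, the receptor for high density lipoproteins, was the one gene with an unadjusted p under 0.05, at 94.5 to 120 TPM in the controls and 76.3 to 85.0 TPM in Alb-Cre+ mice, a difference of -0.42 (SE 0.130, adjusted p = 1.0 in limma). Lrp1, a receptor for remnant particles, differed by 0.23 (SE 0.205) and was also named after its value was seen.

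Among lipases and their cofactors, the partners of apoC-II, 11 of 12 were tested, 4 above and 7 below 0, with a median of -0.11. None had an unadjusted p under 0.05 without the replicate number as a block, and 2 did with it, Angptl4 and Apoa5. The largest differences were 0.50 (SE 0.216) for Angptl4, an inhibitor of lipoprotein lipase, and -0.41 (SE 0.279) for Apoa5, which promotes its action. Leaving out each mouse in turn gave 0.32 (without control replicate 3) to 0.72 (without control replicate 2) for Angptl4 and -0.24 (without control replicate 1) to -0.66 (without control replicate 3) for Apoa5. The 18 regulators of the cluster and LXR targets gave 10 above and 8 below 0, with a median of 0.06. Again none had that p without the block and 2 did with it, Ppara and Foxa2, the latter named after its value was seen. Ppara, a nuclear receptor for fatty acids, differed by -0.45 (SE 0.293), with a range of -0.71 (without Alb-Cre+ replicate 2) to -0.17 (without Alb-Cre+ replicate 3) when a mouse was left out.

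In all, 4 of the 62 listed genes tested had an unadjusted p under 0.05, against 1.75% of all genes. With the replicate number as a block 9 did, against 4.68% of all genes. The lists were chosen with earlier results of these data known, so nothing is read from these counts. No listed gene passed an adjusted p of 0.01 in either fit. Over all 14219 genes the block raised the number at that p from 249 to 666. For the cluster it left the differences as they were and gave SEs of 0.161 for Apoe, 0.123 for Apoc1, 0.121 for Apoc4 and 0.213 for Apoc2.

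Markers of the liver's cell types were measured beside these values. Hepatocyte markers, 5 of 6 of them in the table, summed to 61765 to 67331 TPM in the controls and 50979 to 66603 TPM in Alb-Cre+ mice. Most of this sum was Alb, at 47313 to 54138 TPM in the controls and 55646, 53874 and 38059 TPM in Alb-Cre+ replicates 1, 2 and 3. On the deposited scale, the liver with the least Apoc2 thus also had the least Alb. Of the 5 markers, 4 had differences below 0. The exception was Cps1, with 685 to 966 TPM in the controls and 783 to 1069 TPM in Alb-Cre+ mice. Ttr, the transthyretin gene, had 4852 to 5046 TPM in the controls and 3406 to 4281 TPM in Alb-Cre+ mice. It was lower without overlap, a pattern found in 2.71% of all genes tested. Macrophages also express Apoe, and the 8 Kupffer cell and macrophage markers summed to 177 to 481 TPM and 132 to 518 TPM. Stellate cell markers summed to 69.6 to 204 TPM and 95.5 to 196 TPM, sinusoidal endothelium to 97.7 to 150 TPM and 70.3 to 169 TPM, cholangiocyte to 15.02 to 59.2 TPM and 23.3 to 39.2 TPM, lymphocyte to 2.40 to 6.77 TPM and 2.14 to 7.06 TPM, and erythroid to 68.2 to 282 TPM and 88.0 to 201 TPM. The summed levels overlapped for each list, no marker had an unadjusted p under 0.05, and none was at 0 in every mouse. Some markers also differed between the sexes. Cd5l, a Kupffer cell marker, had 194 and 191 TPM in the control and Alb-Cre+ females, and 38.6 to 66.4 TPM in males. The hepatocyte marker Serpina1e had 151 and 73.8 TPM in these females, and 4377 to 12428 TPM in males. Each group held both sexes, so overlap of such sums says little about composition by genotype. The part of cell composition in the cluster's values was not tested.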

How the data were processed

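Liver RNA of 6 mice was sequenced, with 1 library per mouse. The authors deposited TPM of every transcript, scaled to the same total in all mice. The labels name Salmon, STAR, RSEM and GRCm38, and the study's methods describe STAR and RSEM. A deposited table of the authors' DESeq2 comparison (mean normalized counts, log2 fold changes, standard errors, statistics and p-values) was not used. TPM hold no read numbers, so depth and counting error are unknown. All 22 transcripts of the cluster and Gm44805 carry version numbers later than the GENCODE M21 annotation from which lengths, exons and sequences were read.

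TPM were summed per gene symbol, and unnamed transcripts were kept under their own identifiers. The minimum was a mean of 0.1 TPM over the mice. Genes above it were fitted as log2(TPM + 0.1) in R 4.3.3 (limma 3.58.1), with genotype as the factor, a variance trend and Benjamini-Hochberg adjustment, at the study's threshold of 0.01. A model with genotype and sex gave the sex difference. Shares and sequence counts were computed with Python 3.11.15. The fit was also run on simulated data with independent noise and planted changes larger than the differences of the members. That run does not show how the fit handles differences of their size. The labels do not say how same-numbered mice are related. Their deviations from the group means correlated in every pair (0.366, 0.586 and 0.37). Males with different numbers also correlated, at 0.17 and 0.0885, while pairs of a female and a male ran from -0.443 to -0.348. Replicate 2 was the female in both groups, so in that pair sex cannot be told apart from a link between the mice. The replicate number, which holds sex within it, was used as a block in an alternative fit. P-values and SEs combine the spread between these mice with the variance of other genes, because the variance of each gene was drawn toward that of genes of like abundance. The SE of Apoe thus depended on which genes were fitted. It was 0.288 in the main fit, 0.233 with a minimum of 1 TPM and 1.07 with no minimum. Alternatives were other pseudocounts, minimums and scalings, no variance trend, sex as a covariate, single transcripts, other gene boundaries, and each mouse left out.

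The members and lists were chosen with earlier results of these data known. From each list, genes with an unadjusted p under 0.05 were named, or else the 2 with the largest absolute difference. For each member, the 3 genes with the highest correlation over the mice among genes of at least 10 TPM were named. Some genes that meet these rules are not reported here.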

Additional observations from a re-analysis of the deposited data

Results flagged for a closer look

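Relb, the neighbor gene beyond Clptm1, had a genotype difference of 0.30 on the log2 scale between the 2 female livers, while both pairs of males differed in the opposite direction, by -0.52 and -0.74. The difference between the sexes was not tested, and Relb was at 0.610 to 3.23 TPM in all livers.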

How the results depend on the processing

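The differences by genotype of Apoe, Apoc1, Apoc4 and Apoc2 stayed below 0 under every alternative run. Leaving out each mouse in turn gave -0.28 to -0.10 for Apoe, -0.38 to -0.23 for Apoc1, -0.42 to -0.30 for Apoc4 and -1.32 to -0.60 for Apoc2. Apoc4 and Apoc2 summed as 1 unit differed by -0.48. The difference in Apoc2 share ranged from -8.46 to -2.69 percentage points with each mouse left out. The number of genes called by genotype was 0 with the replicate block, 6 with no minimum on TPM, and 0 to 1 with each mouse left out. The block changed no other call at an adjusted p of 0.01. Of the listed genes, 4 had an unadjusted p under 0.05, and 9 with the replicate block. By sex, Apoc2 reversed to -0.16 with median of ratios, and with each mouse left out Apoc2 ranged from -0.22 to 0.39 and Apoc4 from -0.20 to 0.12. Relb by genotype ranged from -1.04 to 0.09, above 0 without Alb-Cre- replicate 2 (0.090), Alb-Cre+ replicate 1 (0.0085) and Alb-Cre+ replicate 3 (0.074). The cause of these changes was not tested. Alternatives for named genes, the readthrough added to Apoc4 or Apoc2, and the block with an unadjusted p were chosen after seeing the data. With 3 mice a group and TPM without read numbers, small differences could not be resolved.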

Other observations

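Across the 6 livers, the genes whose log2 TPM followed a member most closely were mostly outside the cluster. These correlations are descriptions over 6 points that share genotype and sex, among 5150 genes of at least 10 TPM, and carry no test. Apoe was followed most closely by Polr3gl (r = 0.97), Mettl7b (r = 0.97) and Smim19 (r = 0.96), and Gm44805 was the 7th gene (r = 0.94), although it shares no stretch of 31 bases with Apoe. Apoc1 was followed by Tpst1, Fetub, which encodes a secreted liver protein, and Pon3, an enzyme of high density lipoproteins (r = 0.97 for each). Apoc4 was followed by Brap (r = 0.99), Smagp (r = 0.98) and the mitochondrial ribosome gene Mrpl46 (r = 0.97), with Apoc1 in rank 69 (r = 0.83). Apoc2 was followed by the proteasome subunit gene Psmd6 (r = 0.99), the electron transfer flavoprotein gene Etfa (r = 0.98) and Camk1d (r = 0.98). Its nearest cluster gene was Apoc4, in rank 683 (r = 0.69).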
